A study of Mus musculus with 6 samples.

Results

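Guanylate-binding proteins (GBPs) and immunity-related GTPases (IRGs) were examined in control and PGAM5 knockdown (KD) macrophages after LPS, using 10 genes chosen by name: Gbp2, Gbp3, Gbp5, Gbp7, Gbp9, Irgm1, Irgm2, Igtp, Ifi47 and Iigp1. They are 10 of the 54532 genes deposited, and all 10 were found by their GENCODE M21 symbol. The cells were iBMDMs, a macrophage line immortalized from the bone marrow of WT mice. Control iBMDMs carried a control shRNA, PGAM5 KD iBMDMs carried an shRNA that targets Pgam5, a mitochondrial phosphatase, and both were delivered by lentivirus. Each group had 3 libraries, and every library came from cells given LPS at 100 ng/ml for 4 hours, so no untreated level is at hand. The labels name 1 shRNA per group, so an effect of Pgam5 loss, another effect of that shRNA and a difference between the 2 infected cell populations cannot be told apart.

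GBPs and IRGs are large, interferon-inducible GTPases of cell-autonomous immunity. Interferon receptors act through JAK kinases, STAT proteins and interferon regulatory factors, which bind GAS and ISRE elements in the promoters of these genes, and macrophages also make type I interferon in response to LPS. GBPs assemble as coats on bacteria and on the vacuoles of parasites and bacteria, and they promote inflammasome activation. IRGs fall into regulatory proteins (Irgm1, Irgm2 and Igtp, also called Irgm3), which sit on the membranes of the cell's own organelles, and effector proteins such as Ifi47 (Irgd) and Iigp1 (Irga6), which load onto the vacuoles of parasites.

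Expression is given as FPKM, a fragment count divided by exon length and by library depth. Levels can be compared between genes, and between libraries only as far as their RNA make-up is alike. The FPKM of all genes summed to 304393 to 304889 in control and to 317936 to 324298 in PGAM5 KD libraries. Fold changes are the difference of mean log2(FPKM + 1), PGAM5 KD minus control, tested with limma over the 10540 genes with a mean of at least 1 FPKM over the 6 libraries. On this scale the change of a low gene comes out smaller than its ratio of FPKM. The term "rose" or "fell" is used of genes at an adjusted p under 0.05, and "differentially expressed" of those whose log2 fold change is also beyond 1 in size, the study's own thresholds. With 3 libraries against 3 an exact two-sided permutation test cannot give a p under 0.1. The labels do not state whether replicates were separate cultures or infections, so p-values measure only the spread between these libraries, which may be technical.

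The 6 libraries held between 18163463 and 24388915 fragments, as recovered from the FPKM values. Pgam5 was at 17.1, 13.0 and 13.4 FPKM in control libraries and at 4.33, 5.75 and 4.53 FPKM in PGAM5 KD libraries, a log2 fold change of -1.40 (SE 0.13, limma, adjusted p = 0.000358), so every library was on the side its label gives. Of the macrophage markers, 4 of 8 rose (Fcgr1, Adgre1, Itgam and Cd14), 3 fell (Csf1r, Lyz2 and Cd68) and Mertk was listed at 0 throughout. Their summed level was 2802 to 2894 FPKM in control and 2526 to 2544 FPKM in PGAM5 KD libraries. Every marker of T and NK cells, B cells, dendritic cells, neutrophils and fibroblasts was under 1 FPKM in every library, and each of those 5 lists summed to at most 0.613 FPKM. Over all genes tested, 1771 rose and 1575 fell, so 52.9% of the calls were rises. Scaling to TPM turned this share to 32.3% and quantile normalization to 45.7%, while under each of them all the GBP and IRG genes called here remained called as higher. In bulk RNA, more expressing cells and more RNA per cell cannot be told apart.

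Taken over the 10 genes, GBP and IRG expression was higher in PGAM5 KD iBMDMs. The summed level of the 10 genes was 39.8, 42.1 and 41.0 FPKM in control libraries and 75.9, 77.5 and 77.7 FPKM in PGAM5 KD libraries, 1.88 times as high by the group means. The 5 GBPs summed to 8.06 ± 1.17 FPKM in control and to 15.3 ± 0.527 in PGAM5 KD libraries (SD, n = 3), and the 5 IRGs to 32.9 ± 1.79 and 61.7 ± 1.33 FPKM (SD, n = 3). The 3 PGAM5 KD libraries were above the 3 control libraries for 8 of the 10 genes. Over the genes past the filter, which 4 of the 10 did not pass, 24.2% had this order and 47.1% had groups that did not overlap in either direction. Over the 20816 genes fitted without the filter, 14.7% had this order. The exceptions were Gbp2 and Gbp5, whose groups overlapped. The median log2 fold change of the 10 genes was 0.71, beside 0.01 over all genes tested (interquartile range -0.14 to 0.16).

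Of the 10 genes, 6 passed the filter on low values (Gbp3, Gbp7, Irgm1, Irgm2, Igtp and Ifi47). Each of the 6 rose, where 16.8% of all genes tested rose. Ifi47 passed the filter only through the PGAM5 KD libraries, so its call was in part fixed by the filter. Igtp and Ifi47 were differentially expressed upward, as were 0.787% of the genes tested. Gbp2, Gbp5, Gbp9 and Iigp1 were under the filter, and their values and fits without it are given with each gene.

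**Figure D1:**
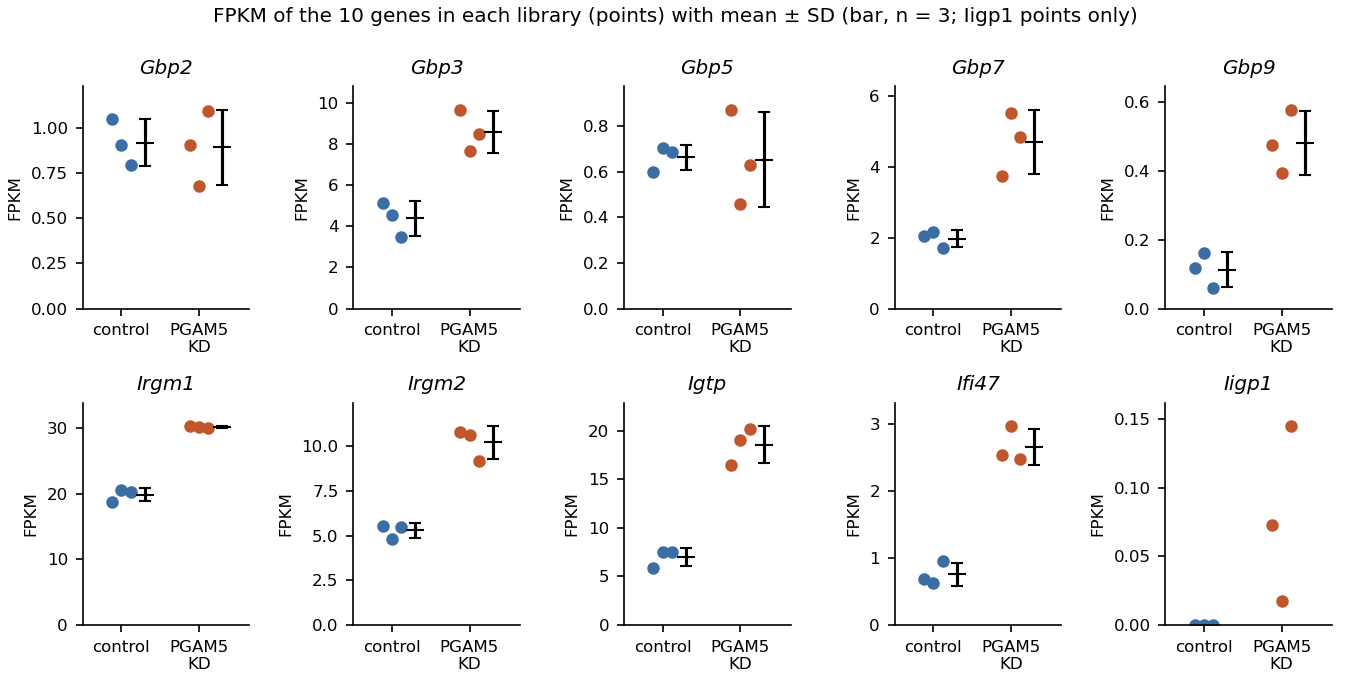
FPKM of the 10 GBP and IRG genes, 1 panel per gene with its own axis from 0. Blue points are the 3 control libraries, orange points the 3 PGAM5 KD libraries, and the black bar beside them is the mean ± SD (n = 3, not drawn for Iigp1, which is at 0 in control). The 2 groups overlap for Gbp2 and Gbp5 and lie apart for the other 8 genes, from Iigp1 at under 0.15 FPKM to Irgm1 at 30.2 FPKM in PGAM5 KD cells.

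The promoters of these genes are shown where the genes are described, because 7 of the 8 genes with a promoter in the table used share an interferon-response element. Windows from 250 bases before to 50 bases after the start site came from RefSeq (GRCm38.p6) and were matched by symbol. Only the 250 bases before the start were searched, on both strands, and not the 50 bases after it. The ISRE core was taken as GAAA, any 2 bases and GAAA, or on the other strand TTTC, any 2 bases and TTTC. The GAS element was TTCNNNGAA, the same on both strands, and the NF-kB motif was searched as well. The ISRE core was in 7 of the 8 genes with a window, or 7 of their 9 windows, and in 2.98% of all 32851 windows. GAS was in 4 of the 8 genes (Gbp5, Gbp7, Irgm2 and Igtp), or 4 of the 9 windows, and in 7.02% of all windows. The NF-kB motif was in 1 gene (Gbp5), or 1 of the 9 windows, and in 7.25% of all windows. Gbp3 had 2 windows, and the second held none of the 3 motifs. Ifi47 held none of the 3 motifs in the 250 bases searched. Gbp9 and Iigp1 were not in the table. A match describes the letters only and says nothing of binding in these cells.

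Of the 4 GBPs from the chromosome 3 cluster among the 10 genes, 2 rose and 2 had groups that overlapped. A further gene of this cluster, Gbp2b, is described with the rest of the family. Gbp3 (ENSMUSG00000028268, chr3:142560026-142573209, plus strand) and Gbp7 (ENSMUSG00000040253, chr3:142530342-142550149, plus strand) rose, while Gbp2 (ENSMUSG00000028270, chr3:142620602-142638008, plus strand) and Gbp5 (ENSMUSG00000105504, chr3:142493978-142522344, plus strand) stayed under 1.1 FPKM in both groups. The stretches below carry the motifs upstream of the start sites and are shown so that the promoters of the pair that rose can be read beside those of the pair that did not. Capitals mark ISRE core, GAS and NF-kB matches, and overlapping matches run together. All are on the plus strand of GRCm38.p6, 5′ to 3′.
Gbp3, chr3:142559984-142560025, where 2 ISRE cores overlap: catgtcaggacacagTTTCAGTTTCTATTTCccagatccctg
Gbp7, chr3:142530215-142530307, GAS, GAS and ISRE core: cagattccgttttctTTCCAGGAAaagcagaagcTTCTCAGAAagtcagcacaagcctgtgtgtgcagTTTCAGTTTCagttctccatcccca
Gbp2, chr3:142620594-142620623, ISRE core: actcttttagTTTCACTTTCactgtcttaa
Gbp5, chr3:142496684-142496899, GAS, ISRE core, NF-kB and GAS: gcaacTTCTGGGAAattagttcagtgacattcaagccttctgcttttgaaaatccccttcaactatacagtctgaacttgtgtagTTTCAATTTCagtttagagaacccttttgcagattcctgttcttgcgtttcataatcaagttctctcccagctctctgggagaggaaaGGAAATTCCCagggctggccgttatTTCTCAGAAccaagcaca
All 4 genes held at least 1 ISRE core, so its presence in these windows did not separate the pairs. The Gbp2 stretch is cut to 30 bases because it lies in an annotated exon.

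Gbp3 was at 5.13, 4.57 and 3.48 FPKM in control libraries and at 9.69, 7.67 and 8.49 FPKM in PGAM5 KD libraries. The lowest PGAM5 KD library was above the highest control library. The means were 4.39 ± 0.836 and 8.62 ± 1.01 FPKM (SD, n = 3), a log2 fold change of 0.84 (SE 0.13, limma, adjusted p = 0.0035), and 222 to 695 fragments lay behind each value. Gbp7, which has been linked to delivery of NADPH oxidase subunits to vacuoles, was at 2.04, 2.17 and 1.71 FPKM in control and at 3.73, 5.53 and 4.83 FPKM in PGAM5 KD libraries. The groups did not overlap, although the PGAM5 KD libraries were spread more widely than the control libraries (4.70 ± 0.909 against 1.97 ± 0.240 FPKM, SD, n = 3). Its log2 fold change was 0.93 (SE 0.13, limma, adjusted p = 0.0025). Of the exon bases of Gbp7, 11.4% are shared with the processed pseudogene Gm43802 on the same strand, which was listed at 0 in every library.

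Gbp2, a prenylated GBP that coats bacteria and parasite vacuoles, was at 1.05, 0.906 and 0.794 FPKM in control and at 0.904, 0.678 and 1.09 FPKM in PGAM5 KD libraries. The highest and the lowest of the 6 values were both in PGAM5 KD libraries. The groups overlapped (exact two-sided permutation test, p = 0.9), and no call was made without the filter (limma, adjusted p = 0.919). Gbp5, a prenylated GBP that promotes assembly of the NLRP3 inflammasome, was at 0.597, 0.702 and 0.687 FPKM in control and at 0.871, 0.456 and 0.630 FPKM in PGAM5 KD libraries. Here too PGAM5 KD libraries held both the highest and the lowest value (exact two-sided permutation test, p = 1). Fitted on the recovered fragments with limma's voom and no filter, the log2 fold change had a 95% interval from -0.75 to 0.71 for Gbp2 and from -0.61 to 0.52 for Gbp5. With 31 to 67 fragments per library on Gbp2 and 55 to 127 on Gbp5, a rise as small as that of Irgm1, fitted at 0.60 on the same scale, was within the interval for Gbp2 and above it for Gbp5.

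The difference between the pairs was compared as the ratio of FPKM within a library, for all pairs among these 4 genes and among Irgm1, Irgm2, Igtp and Ifi47, 12 in all, chosen after the values were seen. The ratio of Gbp3 to Gbp5 was 8.58, 6.51 and 5.07 in control and 11.1, 16.8 and 13.5 in PGAM5 KD libraries. The ratio of Gbp2 to Gbp7 was 0.515, 0.417 and 0.465 in control and 0.243, 0.123 and 0.226 in PGAM5 KD libraries. For each of the 4 pairs that set 1 of Gbp3 and Gbp7 beside 1 of Gbp2 and Gbp5, the groups lay apart, and the ratio changed by 1.04 to 1.31 in size on the log2 scale. These 4 pairs set genes that rose beside genes that did not in the same libraries, so their separation was in part fixed in advance. The exact two-sided permutation test gave p = 0.1 for each (Benjamini-Hochberg adjusted p = 0.15 over the 12 pairs), which is the smallest p this design allows and does not pass a threshold of 0.05. The groups overlapped for Gbp2 to Gbp5 (exact p = 1) and for Gbp3 to Gbp7 (exact p = 0.5).

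Gbp9 (ENSMUSG00000029298, chr5:105077630-105139539, minus strand) belongs to the second GBP cluster. In control libraries it was below the 4 chromosome 3 genes, while in PGAM5 KD libraries it overlapped with Gbp5. It was at 0.117, 0.163 and 0.0594 FPKM in control and at 0.475, 0.394 and 0.579 FPKM in PGAM5 KD libraries. These values rest on 11, 17 and 6 fragments in control and on 54, 37 and 73 fragments in PGAM5 KD libraries, which did not overlap. The PGAM5 KD mean was 4.27 times the control mean. Without the filter, the difference of log2(FPKM + 1) was 0.41 (SE 0.07, limma, adjusted p = 0.0154), a call that 6.36% of the genes in that fit received. On the recovered fragments, where low genes are not damped, the log2 fold change was 2.16 (95% interval 1.09 to 3.23, voom, adjusted p = 0.00425), against 8.92% of genes called higher in that fit. Gbp9 resembles Gbp10 (89.7% identity over 1970 bases), and between 68.0% and 100% of the fragments on both were on Gbp9 in the 6 libraries. It also shares 60 exon bases each with Gbp4 and Gbp8, both listed at 0 throughout.

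The 3 regulatory IRGs made up most of the summed FPKM of the 10 genes, and all 3 rose. Irgm1 (ENSMUSG00000046879, chr11:48861968-48871683, minus strand) lies in 1 cluster with Ifi47, and Irgm2 (ENSMUSG00000069874, chr11:58199618-58222782, plus strand) and Igtp (ENSMUSG00000078853, chr11:58199556-58207591, plus strand) lie together in another. Their promoter stretches are shown because those of Irgm2 and Igtp are near copies, 88.2% identical over 220 bases of the windows, and because all 3 hold the ISRE core. Capitals mark ISRE core and GAS matches, overlapping matches run together, and each is written 5′ to 3′ on the strand of the gene (GRCm38.p6).
Igtp, chr11:58199496-58199546, plus strand, GAS and ISRE core: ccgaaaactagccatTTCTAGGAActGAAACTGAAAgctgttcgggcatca
Irgm2, chr11:58214887-58214937, plus strand, GAS and ISRE core: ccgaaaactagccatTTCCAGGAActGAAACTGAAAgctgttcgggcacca
Irgm1, chr11:48871428-48871457, minus strand, ISRE cores that overlap: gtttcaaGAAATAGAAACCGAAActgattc
The Irgm1 stretch is cut to 30 bases because it lies in an annotated exon.

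Irgm1, which regulates autophagy and protects host membranes from the effector IRGs, was the most abundant of the 10 genes in both groups. It was at 18.8, 20.6 and 20.3 FPKM in control and at 30.3, 30.1 and 30.1 FPKM in PGAM5 KD libraries. The PGAM5 KD libraries were nearly equal to each other and all above the control libraries (30.2 ± 0.098 against 19.9 ± 0.976 FPKM, SD, n = 3). With 1981 to 4262 fragments per library, it had the deepest coverage and the smallest rise, a log2 fold change of 0.58 (SE 0.04, limma, adjusted p = 0.000186). Irgm2, which restrains the caspase-11 inflammasome, was at 5.53, 4.83 and 5.50 FPKM in control and at 10.8, 10.7 and 9.18 FPKM in PGAM5 KD libraries, again without overlap. Its log2 fold change was 0.83 (SE 0.08, limma, adjusted p = 0.000438).

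Igtp, which sits on the endoplasmic reticulum and on lipid droplets, was at 5.88, 7.55 and 7.52 FPKM in control and at 16.5, 19.0 and 20.2 FPKM in PGAM5 KD libraries. Control replicate 1 was the lowest and PGAM5 KD replicate 3 the highest, and the gap between the groups was wider than the spread within either. The means were 6.98 ± 0.956 and 18.6 ± 1.89 FPKM (SD, n = 3), a log2 fold change of 1.30 (SE 0.11, limma, adjusted p = 0.000239), so Igtp was differentially expressed. Irgm2 and Igtp share 162 exon bases on the same strand, 8.01% of the exon bases of Igtp, and are 86.1% identical over 524 bases of coding transcript. How fragments on the shared bases were counted is not given in the sources used here, so the split between Irgm2 and Igtp is uncertain.

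Of the effector IRGs, Ifi47 (ENSMUSG00000078920, chr11:49076587-49096974, plus strand) was at 0.690, 0.621 and 0.953 FPKM in control and at 2.54, 2.96 and 2.47 FPKM in PGAM5 KD libraries. All 3 control libraries were under 1 FPKM and all 3 PGAM5 KD libraries above 2 FPKM. The PGAM5 KD mean was 3.52 times the control mean, with 31, 31 and 46 fragments in control and 138, 133 and 149 fragments in PGAM5 KD libraries. The log2 fold change was 1.06 (SE 0.12, limma, adjusted p = 0.000856), and on the recovered fragments it was 1.81 (95% interval 1.16 to 2.45). Exons of Ifi47 overlap those of Olfr56 by 111 bases and of the pseudogene Gm12188 by 106 bases.

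Iigp1 (ENSMUSG00000054072, chromosome 18), the best studied effector IRG of mouse, was at the edge of detection. It had 0 fragments in every control library and 5, 1 and 11 fragments in PGAM5 KD libraries, or 0.0729, 0.0176 and 0.145 FPKM. Against a floor of 3 fragments over the control group, its level was 5.08-fold higher in PGAM5 KD cells. The floor allows for counting error in control only, and the 17 PGAM5 KD fragments were taken as exact, so this is not a lower bound. PGAM5 KD replicate 3 held 11 of the 17 fragments, and without that library the value was 2.88-fold. It was 3.31-fold to 3.49-fold without any 1 control library, where the floor rests on less depth. The call differed between fits that differ in scale, in weights and in the genes fitted. Without the filter, log2(FPKM + 1) gave an adjusted p of 0.221 in limma. Voom on the fragments, which adds an offset to the 0 counts, gave 0.0217. Iigp1 resembles Gm4951 (86.3% identity over 1280 bases), which had 0, 6 and 1 fragments in control and 9, 11 and 1 fragments in PGAM5 KD libraries. Between 0% and 91.7% of the fragments on both genes were on Iigp1, so how fragments were split between them could change its values.

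**Figure D2:**
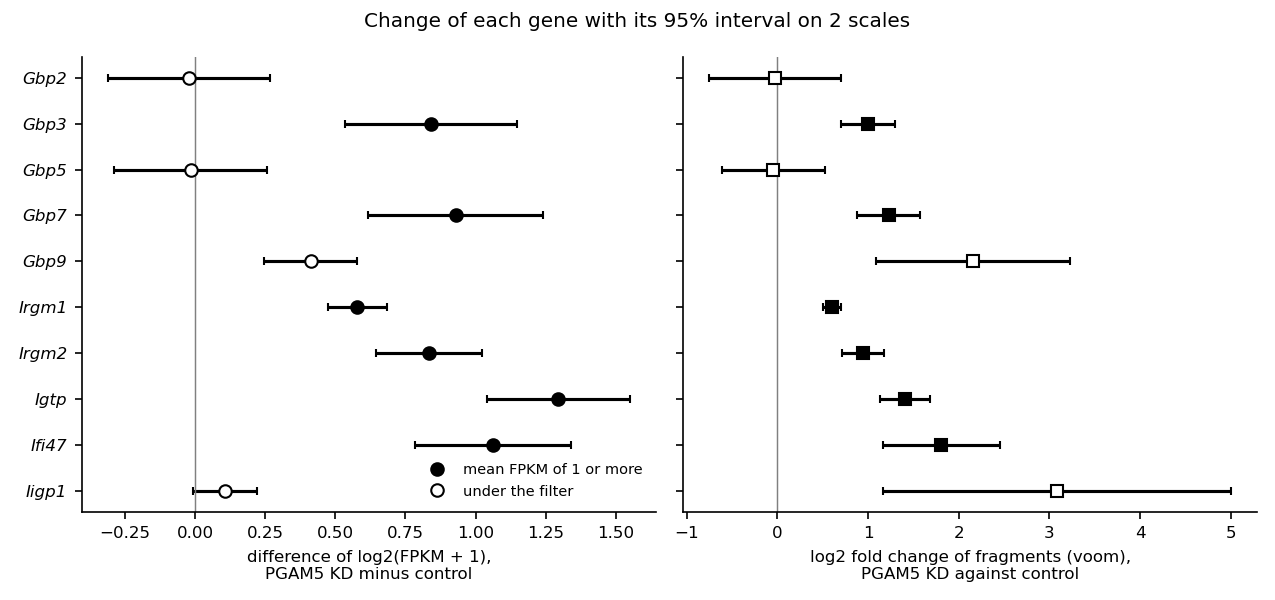
Change of each of the 10 genes, PGAM5 KD against control, with its 95% interval. The left panel shows the difference of log2(FPKM + 1) from limma, taken without the filter for the 4 genes under a mean of 1 FPKM (open symbols), and the right panel the log2 fold change of recovered fragments from voom with no filter. Gbp2 and Gbp5 lie on 0 in both panels, while Gbp9 moves from 0.41 to 2.16 and Ifi47 from 1.06 to 1.81 between the scales. Iigp1 has no control fragment, so its value at right depends on the offset that voom adds.

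The order of the levels was much the same in both groups. In control cells Irgm1 was followed by Igtp, then by Irgm2 and Gbp3, whose libraries overlapped, and by Gbp7. Below it Gbp2 overlapped with Ifi47 and Ifi47 with Gbp5, and Gbp9 and Iigp1 came last. In PGAM5 KD cells the 5 highest genes kept this order, Ifi47 stood apart above Gbp2, Gbp2 overlapped with Gbp5 and Gbp5 with Gbp9, and Iigp1 again came last. Irgm1 made up 48.5% of the summed FPKM of the 10 genes in control and 39.2% in PGAM5 KD cells. The share of Igtp was 17.0% in control and 24.1% in PGAM5 KD cells. The ratio of Irgm1 to Igtp was 3.19, 2.73 and 2.69 in control and 1.84, 1.59 and 1.49 in PGAM5 KD libraries, with no overlap (p = 0.1 in the exact two-sided permutation test, adjusted p = 0.15 over the 12 pairs). The ratio of Irgm1 to Ifi47 was 27.2, 33.2 and 21.3 in control and 11.9, 10.2 and 12.2 in PGAM5 KD libraries, also apart. The groups overlapped for the ratio of Irgm2 to Igtp and of Igtp to Ifi47 (exact p = 0.2 for each).

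Of 15 other GBP and IRG genes, only Gbp2b reached a mean of 1 FPKM. Gbp2b, which lies between Gbp3 and Gbp2, was at 0.761, 0.720 and 0.835 FPKM in control and at 1.52, 0.897 and 1.45 FPKM in PGAM5 KD libraries. The groups lay apart by a narrow margin, set by PGAM5 KD replicate 2, and the log2 fold change of 0.36 (SE 0.15) did not pass the threshold (limma, adjusted p = 0.106, unadjusted p = 0.044). Without PGAM5 KD replicate 2 it was 0.49 (limma, adjusted p = 0.048). Every control library was under 1 FPKM, so Gbp2b passed the filter only through PGAM5 KD libraries and its fit was in part fixed by the filter. The other 14 were under 1 FPKM in every library, and Gbp4, Gbp8, Irgc1, Gm4841 and F830016B08Rik had no fragment in any library. Tgtp1 and Tgtp2, near-identical effector IRGs (Irgb6), had 0 fragments in every control library. In PGAM5 KD replicates 1, 2 and 3, Tgtp1 had 0, 2 and 6 fragments and Tgtp2 had 1, 0 and 6 fragments. Gbp6, Gbp10, Gbp11, Gm12250, Gm12185, Gm5431 and Gm4951 had at most 11 fragments in any library, and their groups overlapped.

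Genes that act above and beside the GBPs and IRGs were then taken from lists chosen by function. Of the interferons, Ifnb1 was at 2.06, 0.661 and 0.615 FPKM in control and at 0.425, 0.514 and 1.26 FPKM in PGAM5 KD libraries, which overlapped, and it was under the filter. Ifng, the strongest known inducer of this family, was listed at 0 in every library. Of the 4 receptor chains, 1 rose, Ifngr1, from 5.94 ± 0.772 to 7.44 ± 0.159 FPKM (SD, n = 3), a log2 fold change of 0.29 (SE 0.09, limma, adjusted p = 0.0432). This call did not hold when any 1 of 5 libraries was left out (adjusted p = 0.0631 to 0.115), all but control replicate 2, nor without the filter (0.103), with TPM (0.0933) or without the trend (0.0526).

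Of 10 JAK, STAT and IRF genes, 7 rose and 3 did not pass the test, with a median log2 fold change of 0.44. Irf7, the interferon regulatory factor that amplifies type I interferon, was at 15.2, 14.5 and 15.9 FPKM in control and at 49.3, 45.7 and 49.2 FPKM in PGAM5 KD libraries. On the log2(FPKM + 1) scale this was the largest change among the tested genes of these lists, a log2 fold change of 1.60 (SE 0.05, limma, adjusted p = 7.42e-06). Stat2 rose by 0.85 (SE 0.06) and Irf8 by 0.68 (SE 0.08) on the log2 scale, and for both the groups lay apart. Of 4 genes that restrain interferon signaling, 3 rose and 1 did not pass the test. Socs3, an inhibitor of cytokine receptor signaling, rose by 1.16 (SE 0.04) and Usp18, which dampens the type I interferon receptor, by 1.07 (SE 0.05) on the log2 scale. Ptpn2, a phosphatase of JAK and STAT proteins, rose by 0.25 (SE 0.06, limma, adjusted p = 0.0221), a call lost without control replicate 1, PGAM5 KD replicate 1 or PGAM5 KD replicate 3 (adjusted p = 0.0523 to 0.0584), with TPM (0.0838) and without the filter (0.0511).

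Among 5 other interferon-inducible GTPases, Mx2, which GENCODE M21 types as a polymorphic pseudogene, was the only one to reach a mean of 1 FPKM. It went from 3.75 ± 0.276 FPKM in control to 10.7 ± 0.688 FPKM in PGAM5 KD libraries (SD, n = 3), without overlap, a log2 fold change of 1.30 (SE 0.07, limma, adjusted p = 4.52e-05). That change was of the size found for Igtp.

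Genes that act with the GBPs and IRGs on membranes did not share one direction. None of the 10 LC3 conjugation genes, through which IRGs and GBPs are brought to vacuoles, passed the test in limma, where 2 were higher and 1 lower at an unadjusted p under 0.05, and voom without a filter called 1, Gabarap, lower. Their median log2 fold change was 0.03. Gabarap was at 77.1, 80.1 and 76.5 FPKM in control and at 65.8, 73.6 and 71.5 FPKM in PGAM5 KD libraries, a log2 fold change of -0.15 (limma, adjusted p = 0.0538, and 0.0483 without PGAM5 KD replicate 2). Map1lc3a changed by 0.48 on the log2 scale (limma, adjusted p = 0.103, and 0.046 without control replicate 1), and both were named after their values were seen. Of 6 genes that tag damaged or infected vacuoles, 2 rose, 1 fell and 3 did not pass the test. Sqstm1, the autophagy adaptor p62, fell by 0.65 on the log2 scale (SE 0.03, limma, adjusted p = 2.54e-05), from 271 ± 5.66 to 172 ± 4.23 FPKM (SD, n = 3). The ubiquitin ligase Trim21 rose by 0.48 (SE 0.08) and galectin-8 (Lgals8) by 0.30 (SE 0.06). Traf6, named after its values were seen, was at -0.20 (limma, adjusted p = 0.0615) and was called lower with TPM (0.0256), without the trend (0.0498) and with voom on the filtered genes (0.0243). Of 6 genes for protein prenylation, the lipid anchoring used by Gbp2 and Gbp5, 1 passed the test and 5 did not. This was Pggt1b, a subunit of the enzyme that attaches geranylgeranyl groups, which fell by 0.25 on the log2 scale (SE 0.05, limma, adjusted p = 0.00663). Without PGAM5 KD replicate 1, Fnta also passed (log2 fold change 0.33, adjusted p = 0.0181), so the count was 2. Both voom fits, in which Pggt1b was not included, called Fnta higher (log2 fold change 0.26).

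Of 6 inflammasome genes downstream of GBPs, 5 were tested and 4 rose, with a median log2 fold change of 0.34. Casp4, which encodes caspase-11, was at 3.49, 4.13 and 4.64 FPKM in control and at 7.75, 7.32 and 7.40 FPKM in PGAM5 KD libraries, a log2 fold change of 0.75 (SE 0.09, limma, adjusted p = 0.00122). Casp1 rose by 0.57 (SE 0.09) and Nlrp3 by 0.34 (SE 0.04). Gsdmd, the pore-forming protein cut by these caspases, rose by 0.22 (SE 0.05, limma, adjusted p = 0.0236), a call lost without control replicate 1 or 3 or PGAM5 KD replicate 1 or 3 (adjusted p = 0.0553 to 0.0763) and with TPM (0.103). Pycard, the adaptor ASC, was under 0.05 FPKM in every library. These lists were chosen with earlier results of the same libraries known, so their counts are a description.

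**Figure D3:**
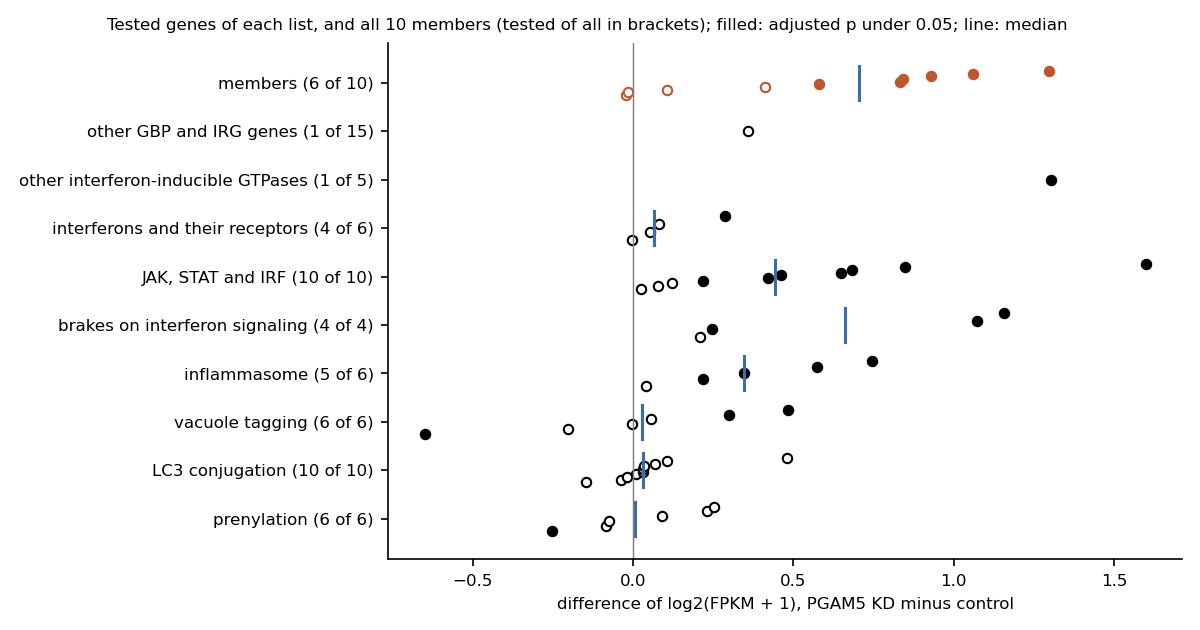
Difference of log2(FPKM + 1), PGAM5 KD minus control, of each tested gene in 10 lists, with the number tested of all genes in brackets and the list median as a blue line. Filled points have an adjusted p under 0.05 in limma, and for the 10 GBP and IRG genes (orange, top) the 4 under the filter are included as open points from the fit without it. The JAK, STAT and IRF, brake and inflammasome genes lie at or above 0, whereas vacuole tagging, LC3 conjugation and prenylation genes lie on both sides of it.

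The genes that flank the GBPs and IRGs on the chromosomes were also compared, taking the 5 nearest tested protein-coding genes on each side of the 5 clusters. The farthest lay 4004 kb from its cluster, so not all of them are close neighbours. Of these 50 genes 8 rose, 11 fell and 31 did not pass the test, with a median log2 fold change of 0.00. The number that fell was 6 without control replicate 2 or PGAM5 KD replicate 3, and 7 without control replicate 1 or without the filter. The number that rose was 4 of 44 in both voom fits. Over all genes tested, 16.8% rose, 14.9% fell and 31.7% were called in either direction. The largest change was in Smim3, which encodes a small membrane protein 81.6 kb from Iigp1 and went from 3.44 to 7.80 FPKM by the group means, a log2 fold change of 0.99 (SE 0.08, limma, adjusted p = 0.000251). Spp1, which encodes osteopontin and lies 637 kb from Gbp9, followed with 0.64 (SE 0.03, limma, adjusted p = 2.5e-05).

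**Figure D4:**
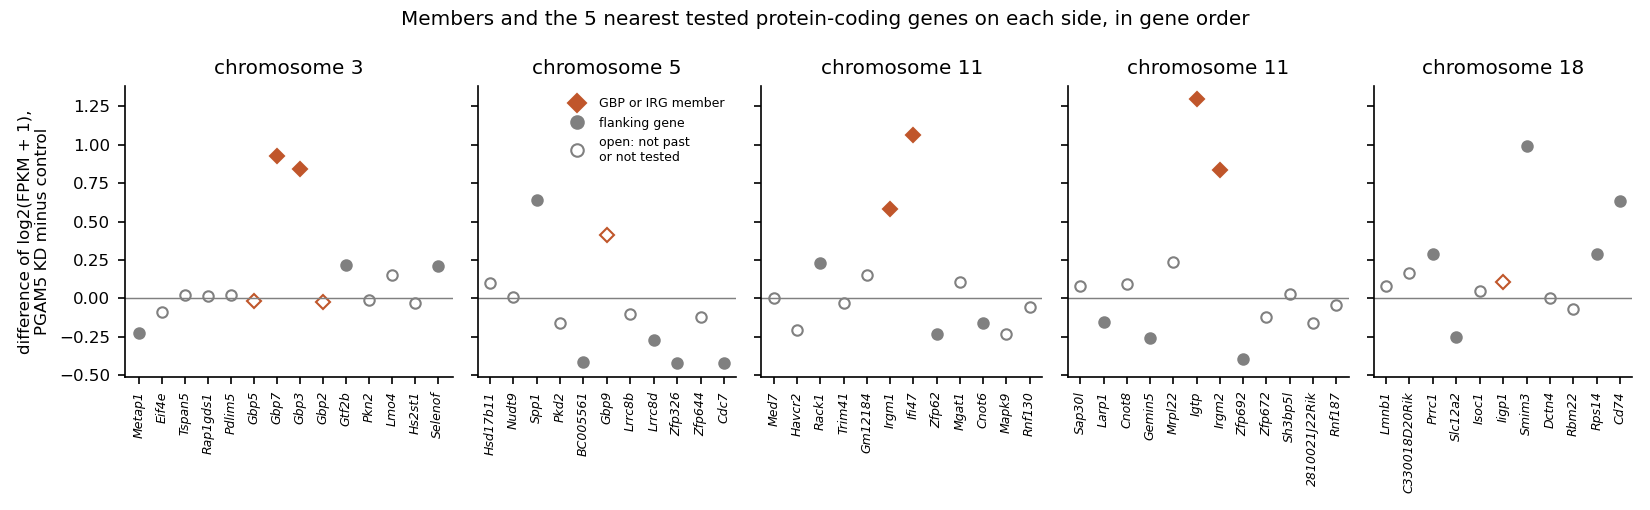
Difference of log2(FPKM + 1), PGAM5 KD minus control, of the GBP and IRG genes (orange diamonds) and the flanking genes (grey circles), in gene order along 5 clusters and not to distance. Filled symbols have an adjusted p under 0.05 in limma, and open ones did not pass or were under the filter. The rises of Gbp7, Gbp3, Irgm1, Ifi47, Igtp and Irgm2 stand among flanking genes of the same clusters that lie between -0.39 and 0.24. Spp1, 637 kb from Gbp9, is at 0.64 and Smim3, 81.6 kb from Iigp1, at 0.99.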

How the data were processed

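RNA-seq was performed on poly(A) RNA from 3 control and 3 PGAM5 KD libraries. The authors deposited FPKM per Ensembl gene. Per the labels, HISAT2 2.0.5, featureCounts 1.5.0-p3 and mm10 were used (submitters' processing notes). The step from counts to FPKM, the annotation and strandedness are not given in the sources used here. FPKM multiplied by GENCODE M21 exon length gave whole fragments (tolerance 0.01) for 96.8% to 97.1% of values under 1000 fragments. For Iigp1 the length of 1 transcript (3121 bases) was used, since the summed exons gave no whole fragments. Replicates differed by more than sampling noise (chi-square per degree of freedom 4.47 to 7.51).

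The 10540 genes with a mean of at least 1 FPKM were compared on log2(FPKM + 1) by limma 3.58.1 (R 4.3.3), two-sided with a mean-variance trend and p-values adjusted by Benjamini-Hochberg over all of them, and single values with exact permutation tests. Scripts were tested on simulated data. Similar genes were found with blastn 2.17.0 (at least 85% identity over 200 bases). Not all of them are described, among them genes that resemble Irgm1 over 200 to 212 bases, such as Wdr12 (86.1% identity over 202 bases). The genes and lists were chosen with earlier results of these data known. Named are all 10 genes, the rest of the family, Pgam5, Ifnb1, Ifng, the marker genes, at most 4 called genes per list and 2 flanking genes, by size of change, and some of the genes sharing sequence. The value of 1 gene that this rule names is not reported here. Alternatives were a pseudocount of 0.1, no filter, a mean of at least 5 FPKM, quantile normalization, TPM, median centring, no trend, a replicate block, voom on recovered fragments and leaving out each library. Voom without a filter and the Iigp1 fold against its floor without each library were added after seeing the data.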

Additional observations from a re-analysis of the deposited data

How the results depend on the processing

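In every alternative in which they were tested, Gbp3, Gbp7, Irgm1, Irgm2, Igtp and Ifi47 were higher in PGAM5 KD cells and past the threshold. The count of GBP and IRG genes called higher was 4 with a mean of at least 5 FPKM (4 tested, with 1528 of 7092 genes called higher) and 8 with voom without a filter (1788 of 20046 genes), and 6 without any 1 library. The count differentially expressed was 1 with a mean of at least 5 FPKM and 5 with voom without a filter (2 to 3 without 1 library). In that voom fit these were Gbp7, Igtp, Ifi47, Gbp9 and Iigp1, of which Iigp1 had 0 control fragments. The share of all genes differentially expressed upward was counted only in the main fit (0.787%). The median log2 fold change of the 10 genes was 0.95 with a pseudocount of 0.1, 0.85 with TPM and 1.11 with voom without a filter (0.65 to 0.71 without 1 library). On the fragments, Gbp9 moved to 2.16.

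Counts called in other lists moved as follows, with smaller moves last. Other GBP and IRG genes had 0 to 1 without 1 library. Other interferon-inducible GTPases had 2 without the filter and with voom without a filter. Interferons and receptors had 0 without the filter, with TPM, without the trend and with voom without a filter (0 to 1 without 1 library). JAK, STAT and IRF genes had 4 with a mean of at least 5 FPKM. LC3 conjugation genes had 1, Gabarap, which was lower, with a mean of at least 5 FPKM, quantile normalization, TPM and both voom fits (0 to 1 without 1 library, where it was Gabarap lower or Map1lc3a higher). Prenylation genes had 2, Pggt1b lower and Fnta higher, with a mean of at least 5 FPKM (1 to 2 without 1 library). Both voom fits called 1, Fnta higher, in place of Pggt1b lower, which they did not include. JAK, STAT and IRF genes also had 6 without the filter and with TPM (5 to 7 without 1 library), brakes 2 without the filter and with TPM (2 to 3), inflammasome genes 3 with TPM (3 to 4), vacuole tagging genes 4 with TPM, without the trend and with voom on filtered genes, and flanking genes 14 to 20 (13 to 17 without 1 library).

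The replicate numbers did not pair the libraries (correlation of deviations for the same number -0.0197, 0.0162 and -0.0516). With the replicate block 2652 genes were called in place of 3346, the 6 GBP and IRG genes remained called, interferons and receptors had 0, JAK, STAT and IRF genes 6 (without Jak2), brakes 2 (without Ptpn2, adjusted p = 0.062), inflammasome genes 3 (without Gsdmd, 0.0604), flanking genes 15, LC3 conjugation genes 1 (Map1lc3a higher) and prenylation genes 2 (Pggt1b lower, Rce1 higher). The causes of these moves were not tested, except that a higher minimum tests fewer genes. Depth limits Gbp2, Gbp5, Gbp9 and Iigp1, with at most 127 fragments in a library. It also limits Ifi47 in control, with 31, 31 and 46 fragments.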
